A study of Mus musculus with 15 samples.

Results

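Th17 cultures were compared with Th1 cultures of mouse CD4+ T cells, both activated with antibodies fixed to the plate. The comparison used the 2 arrays titled as Th17 culture under this stimulation (PBAB) and the 2 titled as Th1 culture under it, 4 of the 15 arrays in the series. It covered all genes with a named probe set, each read from 1 probe set, the one with the highest mean over the 15 arrays. Of 18194 genes, 15498 were tested, those above 5.07 on the log2 scale, the 40th percentile of the table, in at least 2 of the 15 arrays.

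All cultures began with naive CD4+ T cells from spleen and lymph nodes of 3A9 mice, which carry a transgenic T cell receptor for hen egg lysozyme (HEL), and cells with that receptor were sorted with an antibody to it. Under PBAB the wells held 1 μg/ml anti-CD3 and 10 μg/ml anti-CD28 and no splenocytes. Th1 cultures received 10 ng/ml IL-12 and 10 μg/ml anti-IL-4. Th17 cultures received IL-6 at 10 ng/ml, IL-1α at 5 ng/ml and TGF-β at 3 ng/ml. Neutralising antibodies were added to them against IL-4 and IL-12 (10 μg/ml each) and against IFN-γ (20 μg/ml). Each cocktail was given whole, so the effects of its parts cannot be told apart. Total RNA was taken after 4 days, and 500 ng of it was amplified and labelled for each array. Beside this comparison stand the 2 Th9 PBAB arrays (10 ng/ml IL-4 and 1 ng/ml TGF-β) and the same Th17 and Th1 cocktails under HA, in which 2 μg/ml HEL was presented by splenocytes irradiated with 30 Gy (2 arrays each). The labels call the arrays biological replicates without saying which animals, sorts or wells they came from, so the p-values measure the spread between these arrays, which may be technical. RNA came from whole cultures, in which fewer cells making a transcript and less transcript per cell cannot be told apart.

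Th1 cells differentiate under IL-12 through STAT4 and the transcription factor T-bet, make interferon-γ (IFN-γ) and act against intracellular microbes. Th17 cells differentiate under TGF-β with IL-6 through STAT3, make IL-17A, IL-17F and IL-22 and act at mucosal surfaces. IFN-γ itself induces a large set of genes.

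Replicate arrays correlated at r = 0.988 (Th1) and 0.989 (Th17) over all 45101 probe sets, and arrays of different cultures at 0.970 to 0.979. Each value of r is across probe sets, which are not independent. The difference between 3' and 5' probe sets of actin, a measure of RNA integrity, was 0.25 and 0.28 in the Th1 arrays and 0.22 and 0.12 in the Th17 arrays (log2). The T cell genes Cd4 and Cd3e were not called. Cd4 measured 10.47 and 10.02 in the Th1 arrays and 10.04 and 9.72 in the Th17 arrays, and Cd3e, a subunit of the T cell receptor complex, 10.90 and 10.26 against 10.90 and 10.56 (adjusted p = 0.609 and 0.906). Cd247, another subunit of that complex, was called lower, with less certainty, and is given with its list. Throughout, levels are log2 RMA values given for replicates 1 and 2 in that order, and differences are Th17 PBAB minus Th1 PBAB with their standard error (SE) from limma.

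The cultures differed in the genes that define the lineages, and in many others. Of 15498 genes, 598 were higher in Th17 (3.86%) and 485 were lower (3.13%) at a limma p-value under 0.05 after Benjamini-Hochberg adjustment, which is what "called" means here. The difference reached 1 on the log2 scale, a doubling, for 375 of the higher and 308 of the lower genes, and it reached 2 for 103 and 73. In every called gene both Th17 arrays lay on the same side of both Th1 arrays. Among all 15498 genes, called or not, this held for 3503 with Th17 higher and 3682 with Th17 lower. Such separation therefore adds little to a call. Among the genes called higher, 54 had a Th1 mean below 5.07, and among those called lower 77 had a Th17 mean below it. For such genes the size of the difference rests on one culture at the low end of the scale, and no fold is given for them. The fit behind these calls did not pair arrays by replicate number. With the replicate number as a block, a fit described with the processing, 1442 were higher and 1200 lower. Without Th1 PBAB 1, Th1 PBAB 2, Th17 PBAB 1 and Th17 PBAB 2 in turn, 259, 262, 318 and 246 were called higher and 196, 253, 290 and 248 lower. Counts with 1 array left out are given in this order from here on. The background for each PBAB list count below is the share over all genes, 3.86% higher and 3.13% lower. In a short list 1 called member is not a result about the list.

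**Figure D1:**
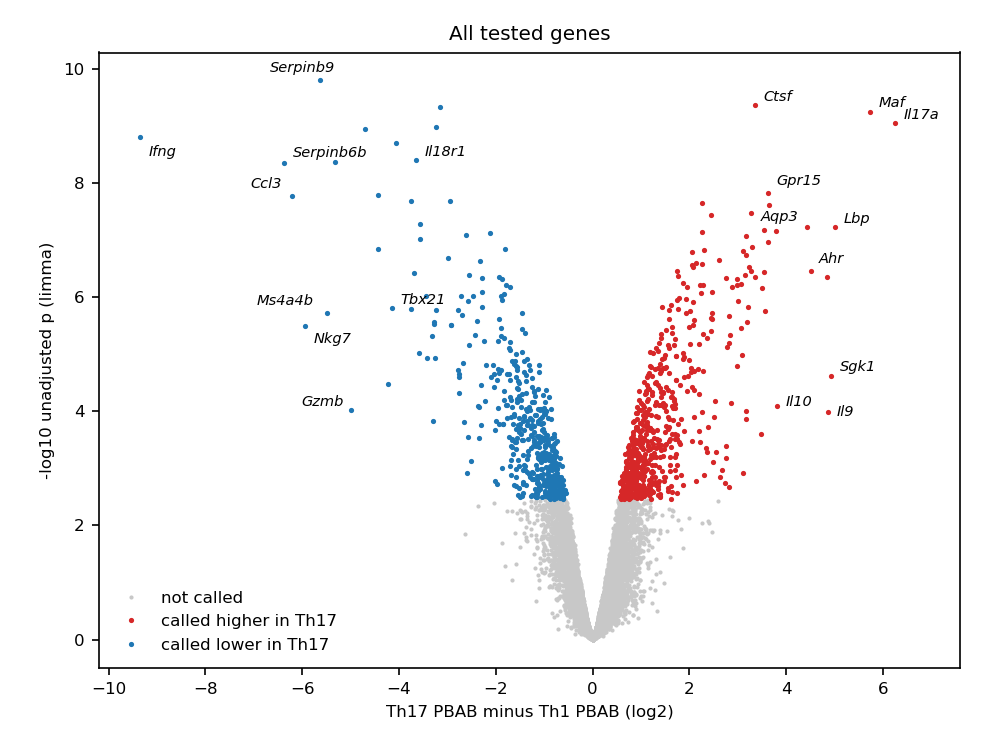
Each point is 1 of the 15498 tested genes; the x axis is the Th17 PBAB minus Th1 PBAB difference (log2) and the y axis the -log10 of the unadjusted limma p. The 598 genes called higher in Th17 are red and the 485 called lower are blue; Ifng lies alone at -9.35 on the left, and Il17a at 6.26 and Maf at 5.74 lie farthest right.

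Il17a, the signature cytokine of Th17 cells, had the largest increase of all tested genes. Its level was 5.42 and 5.73 in the Th1 arrays and 11.85 and 11.82 in the Th17 arrays, a difference of 6.26 ± 0.30 (76.5-fold, adjusted p = 2.56e-06). Il21, a cytokine that Th17 cells make and respond to, was 7.28 and 6.29 in Th1 and 9.96 and 9.79 in Th17 (3.09 ± 0.39, adjusted p = 0.00101). For both genes the arrays of the cultures were far apart, and the Th17 replicates lay close together. Ltb4r1, the high-affinity receptor for leukotriene B4, rose from 6.38 and 6.72 to 9.84 and 9.80 (3.27 ± 0.29, adjusted p = 0.00011). Il1r1, the receptor for the IL-1α in the cocktail, measured 5.71 and 6.22 in Th1 and 7.19 and 6.79 in Th17 (1.03 ± 0.23, adjusted p = 0.0268). Ccr6, the chemokine receptor that marks Th17 cells in tissue, measured 6.29 and 6.88 against 8.22 and 7.29 (1.17 ± 0.30, adjusted p = 0.045). These smaller increases were less sure: the call of Il1r1 was lost without Th1 PBAB 1, Th17 PBAB 1 or Th17 PBAB 2 (adjusted p = 0.0553 to 0.183), and that of Ccr6 without Th1 PBAB 1, Th1 PBAB 2 or Th17 PBAB 1 (0.0585 to 0.271) and in the fits of the 4 or the 6 PBAB arrays and after a new quantile normalization (0.061 to 0.0866). In all, 5 of the 7 tested members of the list of Th17 cytokines and receptors were higher and 0 lower, with a median difference of 1.17 against -0.02 over all genes; with 1 array left out 3, 4, 3 and 4 were higher. Il17f, Il22 and Il23r were not analysed here.

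The transcription factors of the lineage followed. Maf, which drives Il10 and Il21 in several T helper types, went from 6.22 and 5.87 in Th1 to 12.04 and 11.53 in Th17 (5.74 ± 0.27, 53.4-fold, adjusted p = 2.19e-06). Ahr, the aryl hydrocarbon receptor, a ligand-activated factor that supports IL-22 production, went from 6.83 and 6.53 to 11.41 and 10.97 (4.51 ± 0.40, 22.8-fold, adjusted p = 0.00011). Rora, a nuclear receptor, was already well expressed in Th1, at 9.44 and 9.66, and measured 11.71 and 11.58 in Th17 (2.10 ± 0.29, adjusted p = 0.00155). Runx1, a Runt-family factor, measured 7.15 and 6.93 against 8.08 and 8.11 (1.05 ± 0.18, adjusted p = 0.00538). Its call was lost without Th1 PBAB 2 (adjusted p = 0.0537) and with another probe set (0.144). Thus 4 of 10 tested members were higher and 0 lower, and the other 6, among them Stat3 at 11.27 and 11.23 against 12.36 and 12.29 (adjusted p = 0.0524), Irf4 and Batf, were not called.

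The 10 largest increases also held genes outside the lineage lists. Sgk1, a kinase induced by serum, salt and glucocorticoids, was 6.76 and 6.29 in Th1 and 11.76 and 11.15 in Th17 (4.94 ± 0.69, 30.6-fold, adjusted p = 0.00171). Aqp3, a channel for water and glycerol, was 7.37 and 7.02 against 11.89 and 11.35 (4.43 ± 0.33, 21.5-fold, adjusted p = 3.88e-05). Adam19, a membrane-bound metalloprotease, was 6.57 and 6.31 against 10.29 and 10.18 (3.79 ± 0.28, 13.9-fold, adjusted p = 4.09e-05). Each was called with any 1 of the 4 arrays left out, and in each the arrays of the cultures were far apart.

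**Figure D2:**
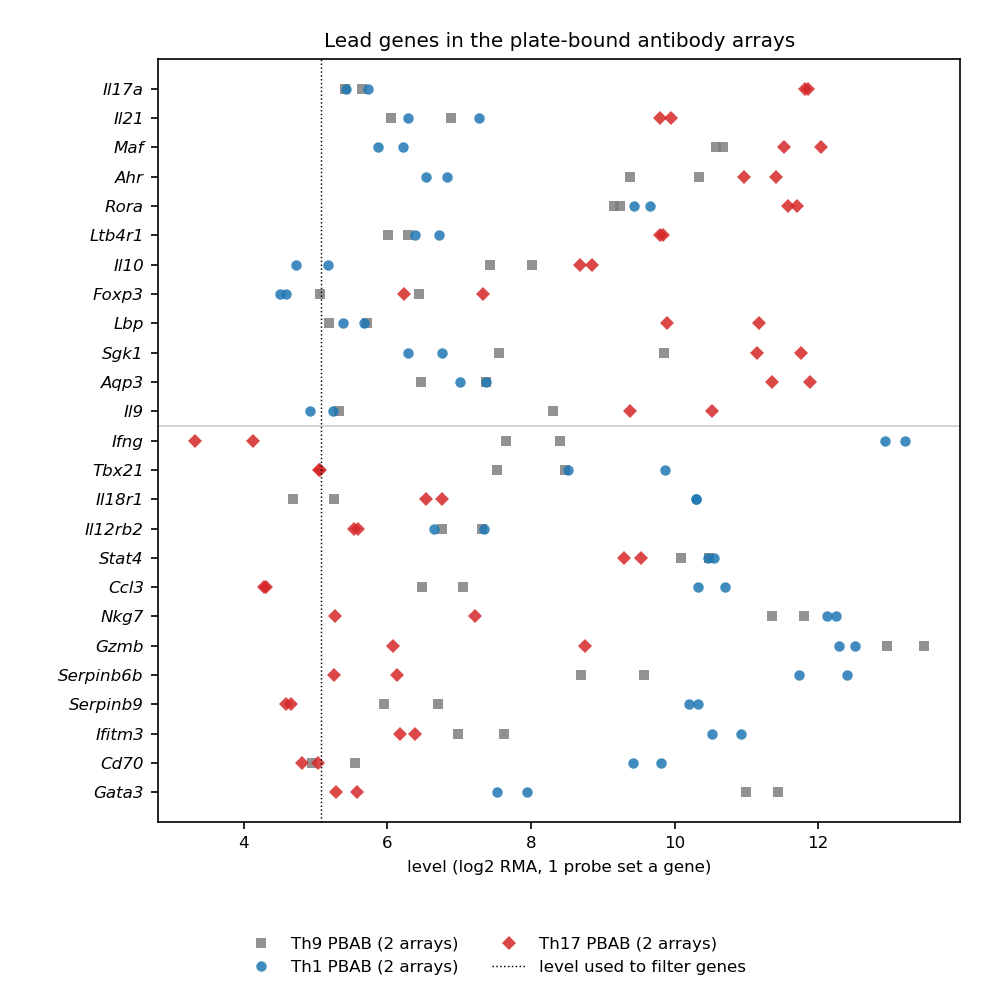
Levels of 25 genes (log2 RMA) in the 2 arrays each of Th1 (blue circles), Th17 (red diamonds) and Th9 (grey squares) cultures under PBAB, with the filter level of 5.07 dotted. The 12 genes above the grey line were called higher and the 13 below it lower in Th17 than in Th1; Maf, Ahr and Il10 in Th9 lie nearer to Th17, and Nkg7 and Gzmb in Th9 lie nearer to Th1.

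The largest difference of either direction belonged to Ifng, the Th1 cytokine. It measured 13.21 and 12.94 in the Th1 arrays and lay at the low end of the scale in the Th17 arrays, at 3.32 and 4.13 (-9.35 ± 0.48, adjusted p = 3.08e-06). Tbx21, which encodes T-bet, was 9.87 and 8.52 in Th1 and 5.05 and 5.07 in Th17 (-4.14 ± 0.43, adjusted p = 0.000262). Il18r1, the receptor through which IL-18 amplifies IFN-γ, was 10.30 in both Th1 arrays and 6.54 and 6.76 in the Th17 arrays (-3.65 ± 0.20, 12.5-fold lower, adjusted p = 5.9e-06). The groups did not overlap in any of these genes, and each call held with any 1 of the 4 arrays left out.

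Other Th1 genes moved less. Il12rb2, the signalling chain of the IL-12 receptor, measured 7.35 and 6.65 in Th1 and 5.60 and 5.54 in Th17 (-1.43 ± 0.32, adjusted p = 0.0238). Il18rap, the IL-18 receptor accessory chain, measured 7.52 and 7.4 against 6.03 and 6.51 (-1.19 ± 0.30, adjusted p = 0.0393). Stat4, the IL-12 signal transducer, remained high in both at 10.54 and 10.47 against 9.29 and 9.53 (-1.09 ± 0.25, adjusted p = 0.0282), and Eomes, a relative of T-bet, measured 6.57 and 6.51 against 5.92 and 5.64 (-0.76 ± 0.18, adjusted p = 0.0325). The calls of Il18rap, Stat4 and Eomes were lost with any 1 of the 4 arrays left out (adjusted p = 0.0792 to 0.223, 0.0907 to 0.158 and 0.0602 to 0.214), that of Eomes also with the 4 arrays fitted alone (0.0599), and that of Il12rb2 without Th1 PBAB 1, Th17 PBAB 1 or Th17 PBAB 2 (0.10 to 0.17). Irf1, an IFN-γ-induced factor that supports Th1 differentiation, was 10.09 and 10.05 against 9.07 and 9.09 (-0.99 ± 0.16, adjusted p = 0.00502). Cxcr3, a chemokine receptor of Th1 cells, overlapped between the cultures at 6.84 and 6.76 against 7.29 and 6.77 (0.23 ± 0.47, adjusted p = 0.882). Of 9 tested Th1 transcription factors 4 were lower and 0 higher, and 2 were lower whichever array was left out.

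The list of Th1 cytokines and receptors was split, with 4 of 12 lower and 3 higher. The members that were higher in Th17 were both chains of the IFN-γ receptor and Cxcr6, the receptor for CXCL16. Ifngr2, the chain that limits IFN-γ signalling in T cells, rose from 6.71 and 7.01 to 9.83 and 10.45 (3.28 ± 0.23, 9.73-fold, adjusted p = 2.65e-05), and Ifngr1 from 9.41 and 9.46 to 10.55 and 10.68 (1.18 ± 0.21, adjusted p = 0.00741). Cxcr6 went from 5.09 and 5.72 to 8.74 and 9.01 (3.47 ± 0.64, adjusted p = 0.00874). Without Th1 PBAB 1 or Th17 PBAB 2 the calls of Ifngr1 (adjusted p = 0.0577 to 0.0663) and Cxcr6 (0.0727 to 0.0751) were lost. With 1 array left out, 1, 3, 3 and 1 members were higher and 2, 3, 2 and 2 lower.

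Genes that interferons induce were lower in Th17 as far as they were called. Of 19 tested IFN-γ-induced genes 7 were lower and 0 higher, with a median difference of -0.83, against a background of 3.13% of all genes called lower; 4, 3, 4 and 5 were lower with 1 array left out. Psmb9, an inducible subunit of the immunoproteasome, was 11.63 and 11.52 in Th1 and 9.86 and 9.72 in Th17 (-1.78 ± 0.17, 3.44-fold lower, adjusted p = 0.000141), and Psmb10, another, 9.41 and 9.58 against 7.79 and 8.19 (-1.5 ± 0.26, adjusted p = 0.00659). The call of Psmb10 was lost without Th1 PBAB 2 or Th17 PBAB 1 (adjusted p = 0.0543 to 0.0609). Among guanylate-binding proteins, GTPases that attack intracellular pathogens, Gbp6 was 7.25 and 7.33 against 4.13 and 3.89 (-3.28 ± 0.36, adjusted p = 0.000378) and Gbp7 7.71 and 7.92 against 5.11 and 5.20 (-2.66 ± 0.46, 6.32-fold lower, adjusted p = 0.00612). Members of this family are alike in sequence, and whether their probe sets also detect one another was not tested.

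Type I interferons share part of this programme, and 8 of 22 tested genes of that list were lower and 0 higher (median -0.36; 3, 4, 4 and 4 lower with 1 array left out, and 1 higher with the block). Ifih1, a sensor of viral RNA, was 7.64 and 7.51 in Th1 and 5.49 and 5.86 in Th17 (-1.90 ± 0.21, adjusted p = 0.000452). Usp18, which removes the ubiquitin-like modifier ISG15, was 6.53 and 6.16 against 4.03 and 4.56 (-2.05 ± 0.28, adjusted p = 0.00163). Oas3, an enzyme that activates RNase L, was 6.26 and 6.38 against 5.20 and 5.20 (-1.12 ± 0.17, adjusted p = 0.00259). Ifit1, which binds viral RNA, was 5.34 and 5.30 against 3.87 and 4.11 (-1.33 ± 0.23, adjusted p = 0.00671), a call lost without Th1 PBAB 1 or Th17 PBAB 1 (0.0533 to 0.0589). Ifitm3, a membrane protein that blocks viral entry and was among the 10 genes with the largest decreases, was 10.92 and 10.52 against 6.18 and 6.38 (-4.44 ± 0.29, 21.7-fold lower, adjusted p = 1.75e-05).

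The 3 promoters given here belong to genes that were lower in Th17 and hold matches to elements through which interferons act. The promoters of Psmb9, Psmb10 and Ifih1, also lower in Th17, held no match to either motif. Each is the 250 bases before the start site from RefSeq on GRCm38.p6, read along the strand of the gene, with matches in capitals. The motifs searched on both strands were the IFN-γ-activated element GAS (TTCNNNGAA) and the element of the IRF factors, ISRE (GAAA, any 2 bases, GAAA). Matches may overlap one another.
Gbp7 (chr3:142530086-142530335, + strand; GAS at 106 and 87 and ISRE at 53 bases before the start site): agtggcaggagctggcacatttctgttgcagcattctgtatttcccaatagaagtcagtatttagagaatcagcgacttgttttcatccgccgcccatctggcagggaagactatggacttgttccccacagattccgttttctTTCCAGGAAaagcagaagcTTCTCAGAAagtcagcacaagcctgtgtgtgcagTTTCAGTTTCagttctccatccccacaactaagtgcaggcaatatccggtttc
Ifit1 (chr19:34640639-34640888, + strand; ISRE at 104 and 85): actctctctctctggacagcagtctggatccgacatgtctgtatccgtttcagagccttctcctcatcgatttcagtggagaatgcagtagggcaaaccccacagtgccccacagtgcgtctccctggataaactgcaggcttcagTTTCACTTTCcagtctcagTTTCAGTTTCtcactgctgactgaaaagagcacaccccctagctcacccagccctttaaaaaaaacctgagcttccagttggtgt
Oas3 (chr5:120777660-120777909, - strand; ISRE at 75): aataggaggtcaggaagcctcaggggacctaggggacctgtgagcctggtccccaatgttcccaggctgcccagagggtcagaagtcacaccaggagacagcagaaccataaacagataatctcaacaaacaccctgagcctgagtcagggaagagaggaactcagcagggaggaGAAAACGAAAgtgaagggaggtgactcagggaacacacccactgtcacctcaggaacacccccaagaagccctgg
In the same window the GAS letters occurred in 7.02% and the ISRE letters in 2.98% of all 32851 promoters. Counted by gene, with a match in any promoter of the gene, they occurred in 7.16% and 3.14% of 12325 tested genes. The shares that follow are also counted by gene. Of the 15 tested IFN-γ-induced genes with a promoter in the table, 4 held GAS (26.7%) and 8 held ISRE (53.3%), and of the 5 called lower 1 held GAS and 2 held ISRE. Of the 15 tested type I interferon-stimulated genes with a promoter, 4 held GAS (26.7%) and 7 held ISRE (46.7%). Among the 384 genes called lower in Th17 that had a promoter, 7.81% held GAS and 5.99% ISRE, and among the 480 called higher 8.54% and 1.67%. These are shares of letters in a window and not binding measurements.

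**Figure D3:**
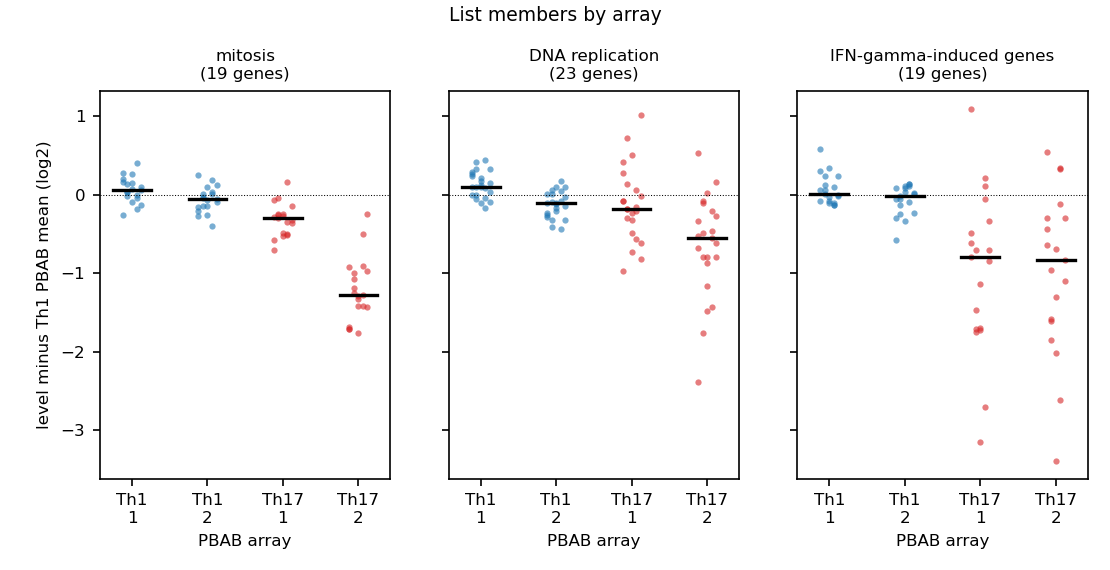
Each point is 1 gene in 1 of the 4 PBAB arrays (x axis), plotted as its level minus its mean in the 2 Th1 arrays (log2, y axis), and black bars are medians; panels show 19 mitosis, 23 DNA replication and 19 IFN-γ-induced genes. The medians of the IFN-γ-induced genes were -0.79 and -0.83 in the Th17 arrays, and those of the mitosis genes -0.30 and -1.27.

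Of 15 tested genes of cytotoxic granules and death ligands 3 were lower in Th17, 1 was higher (2 with the block) and 11 were not called. Gzmb, granzyme B, which induces apoptosis in target cells, was 12.28 and 12.52 in Th1 and 6.07 and 8.76 in Th17 (-4.99 ± 0.81, 31.7-fold lower, adjusted p = 0.00448); the Th17 replicates differed widely from each other and both lay below Th1. Nkg7, a protein of the granule membrane, was 12.24 and 12.13 against 5.28 and 7.23 (-5.94 ± 0.66, 61.2-fold lower, adjusted p = 0.000424). Fasl, the ligand of the death receptor Fas, was 8.95 and 9.41 against 5.92 and 6.62 (-2.92 ± 0.32, 7.55-fold lower, adjusted p = 0.000408). Ctsw, a cathepsin of cytotoxic lymphocytes, went the other way, at 10.10 and 10.25 against 11.31 and 11.13 (1.04 ± 0.21, adjusted p = 0.0128), and its call was lost with any 1 of the 4 arrays left out (0.0537 to 0.0964). Perforin (Prf1) was not called, at 6.45 and 6.83 against 5.90 and 6.32 (adjusted p = 0.386). The NK cell receptor gene Klrk1, at 8.68 and 9.23 against 5.90 and 6.82, was lower as well (-2.60 ± 0.59, adjusted p = 0.0257), a call lost without any 1 of those 4 arrays (0.0600 to 0.167), while Ncr1, which defines NK cells, lay at 4.30 and 4.70 against 4.50 and 4.44. Klre1, another NK cell receptor gene, was higher, at 4.91 and 5.01 against 5.61 and 5.95 (0.82 ± 0.18, adjusted p = 0.0219). Its call was lost without Th1 PBAB 1, Th1 PBAB 2 or Th17 PBAB 2 (0.0883 to 0.169) and with the 4 arrays alone (0.0525). Of 4 tested NK cell markers 1 was higher and 1 lower.

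The 10 largest differences in each direction held genes of intracellular serpins, protease inhibitors of the cytosol, which were on no list. Serpinb9, which inhibits granzyme B, was 10.32 and 10.20 in Th1 and 4.65 and 4.59 in Th17 (-5.64 ± 0.23, adjusted p = 2.19e-06), and Serpinb6b 11.74 and 12.40 against 5.26 and 6.14 (-6.37 ± 0.36, 83-fold lower, adjusted p = 5.9e-06). Serpinb1a, an inhibitor of neutrophil-type serine proteases, showed the reverse, at 5.82 and 6.43 in Th1 and 10.85 and 11.06 in Th17 (4.84 ± 0.44, 28.6-fold, adjusted p = 0.000119). The 10 largest decreases also held Ms4a4b, a membrane protein of the CD20 family (9.76 and 10.88 against 4.52 and 5.15), Crabp2, a retinoic acid-binding protein (11.03 and 11.39 against 5.54 and 6.24), and Cd70, the ligand of CD27 (9.42 and 9.81 against 4.80 and 5.03). Their differences were -5.48 ± 0.58, -5.32 ± 0.30 and -4.70 ± 0.23 (adjusted p = 0.000291, 5.9e-06 and 2.56e-06).

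The Th17 cocktail contains TGF-β, and 7 of 16 tested TGF-β response genes were higher in Th17 and 0 lower (median 0.86, against 3.86% of all genes called higher). The list had 11 higher with the block, 4 with the mean of all probe sets, and 5, 4, 5 and 4 with 1 array left out. Under HA, with the same cocktails, 7 members of this list were called higher and 1 lower (median 0.73), against 3.03% and 3.87% of all genes. Whether TGF-β had a part in these differences was not tested. Under PBAB, Smad3, the signal transducer, was 7.80 and 7.61 in Th1 and 9.95 and 9.63 in Th17 (2.08 ± 0.23, 4.23-fold, adjusted p = 0.000408). Its difference under HA was 0.28 (limma adjusted p = 0.665). The others with the smallest p are inhibitors that the pathway induces against itself. Ldlrad4 was 6.64 and 5.86 against 8.83 and 9.23 (2.78 ± 0.34, 6.87-fold, adjusted p = 0.000795), Skil 10.16 and 9.91 against 11.44 and 11.43 (1.40 ± 0.21, adjusted p = 0.00278), and Smad7 8.42 and 8.18 against 9.11 and 9.27 (0.89 ± 0.17, adjusted p = 0.0102). The call of Smad7 was lost without Th1 PBAB 2 or Th17 PBAB 2 (0.0897 to 0.0940).

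The cocktail also contains IL-6, and 4 of 12 tested genes of the IL-6 and STAT3 list were higher and 0 lower (median 0.87; 3 were higher whichever array was left out). Over all genes 3.86% were called higher. Under HA, with the same cocktails, 1 member of this list was called higher and 2 lower (median -0.22). Whether IL-6 had a part in these differences was not tested. Under PBAB, Il10, an anti-inflammatory cytokine, went from 5.18 and 4.73 to 8.68 and 8.85 (3.81 ± 0.61, adjusted p = 0.00408). Il6ra, the ligand-binding receptor chain, was 6.22 and 6.36 in Th1 and 7.87 and 8.48 in Th17 (1.89 ± 0.26, 3.71-fold, adjusted p = 0.00178), and Il4ra, the IL-4 receptor chain, 8.97 and 8.80 against 10.64 and 10.42 (1.64 ± 0.26, adjusted p = 0.00415). Socs3, the feedback inhibitor of IL-6 signalling, was 10.47 and 10.16 against 12.11 and 11.92 (1.70 ± 0.38, adjusted p = 0.0235). The call of Socs3 was lost with any 1 of the 4 arrays left out (0.0808 to 0.151) and with the mean of its probe sets (0.102).

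TGF-β also induces Foxp3, the regulatory T cell factor, which was 4.59 and 4.51 in Th1 and 7.33 and 6.24 in Th17 (2.23 ± 0.43, adjusted p = 0.0108). Its call was lost without Th1 PBAB 1, Th1 PBAB 2 or Th17 PBAB 1 (0.0633 to 0.0887). The other regulatory T cell markers with the smallest p were Nt5e (CD73, which makes adenosine), at 6.27 and 6.63 against 8.58 and 8.84 (2.26 ± 0.19, 4.79-fold, adjusted p = 9.33e-05), Izumo1r (folate receptor 4), at 8.44 and 8.52 against 10.54 and 10.61 (2.10 ± 0.23, adjusted p = 0.000356), and the orphan receptor Gpr83, at 5.20 and 5.62 against 7.58 and 7.81 (2.29 ± 0.26, adjusted p = 0.000537). Other probe sets of Nt5e differed by 5.67 and 0.06, so the size of its difference depends on the probe set. In all 4 of 13 tested members were higher and 0 lower, 3, 3, 4 and 4 higher with 1 array left out, and 9 higher and 1 lower with the block. Ctla4 and Il2ra, high in both cultures, were not called (0.62 and 0.83, adjusted p = 0.0656 and 0.0843).

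Cytokines of other lineages separated gene by gene. Il9, the Th9 cytokine, was higher in Th17, at 10.52 and 9.38 against 4.92 and 5.24 in Th1 (4.87 ± 0.80, 29.3-fold, adjusted p = 0.00475), and its level in the Th9 PBAB arrays was 8.31 and 5.33. Gata3, the type 2 factor, was lower in Th17, at 5.29 and 5.58 against 7.94 and 7.53 (-2.30 ± 0.40, 4.93-fold lower, adjusted p = 0.00667), a call lost without Th1 PBAB 1 or Th17 PBAB 1 (0.0557 to 0.0628). The type 2 cytokine Il4 lay at 4.55 and 4.72 against 4.69 and 4.78, and Il5 and Il13 were not called either. Il3, a haematopoietic growth factor, was 7.30 and 7.63 in Th1 and 3.52 and 3.89 in Th17 (-3.76 ± 0.25, adjusted p = 1.94e-05). The chemokine receptors Ccr4 and Ccr8, linked to type 2 and regulatory cells, were higher in Th17, with levels of 5.84 and 6.11 against 7.75 and 8.22 (2.01 ± 0.21, adjusted p = 0.000274) and of 5.93 and 5.59 against 8.38 and 8.03 (2.44 ± 0.26, adjusted p = 0.000337).

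Growth and inflammatory cytokines were mostly lower in Th17 where they were called: 5 of 13 members of the list of other T cell cytokines were lower and 1, Il10, higher (2 higher with the block; 2, 2, 2 and 4 lower with 1 array left out). Il2, the T cell growth factor, was 5.90 and 6.31 in Th1 and 4.19 and 4.36 in Th17 (-1.84 ± 0.27, adjusted p = 0.00272). Csf2, which encodes GM-CSF, was 8.17 and 8.75 against 6.22 and 7.44 (-1.63 ± 0.40, 3.1-fold lower, adjusted p = 0.0352), and was not called without Th1 PBAB 1, Th1 PBAB 2 or Th17 PBAB 1 (0.0737 to 0.231) or with the 6 PBAB arrays alone (0.0601). Tnfsf8, the ligand of CD30, was 8.62 and 8.36 against 6.20 and 6.20 (-2.29 ± 0.21, 4.89-fold lower, adjusted p = 0.000119). Tnfsf11, the osteoclast factor RANKL, was 7.69 and 7.59 against 5.68 and 6.5 (-1.56 ± 0.29, adjusted p = 0.00985), a call lost without Th1 PBAB 1, Th1 PBAB 2 or Th17 PBAB 1. Another probe set of Tnfsf11 differed by -3.16.

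Of 10 tested chemokine ligands 3 were lower in Th17, 0 were higher and 7 were not called. Ccl3 was 10.33 and 10.70 in Th1 and 4.31 and 4.28 in Th17 (-6.22 ± 0.40, adjusted p = 1.75e-05), Ccl4 10.70 and 10.58 against 6.69 and 7.21 (-3.69 ± 0.33, 12.9-fold lower, adjusted p = 0.000114), and Ccl5 9.29 and 8.99 against 6.78 and 6.34 (-2.58 ± 0.26, 5.97-fold lower, adjusted p = 0.000211). These 3 were called whichever array was left out. Xcl1, lymphotactin, was not called at 5.66 and 6.77 against 4.91 and 5.20 (adjusted p = 0.126; with the block, adjusted p = 0.00243).

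Some receptors that guide cells to tissue were called, and 15 of the 20 tested members of their list were not. Gpr15, which directs T cells to the large intestine, was 4.24 and 4.06 in Th1 and 7.64 and 7.93 in Th17 (3.63 ± 0.23, adjusted p = 1.75e-05). Cxcr4, the receptor for CXCL12, was 7.94 and 8.66 against 10.82 and 10.81 (2.51 ± 0.42, 5.7-fold, adjusted p = 0.00544), and lost its call without Th1 PBAB 1 (0.0575). Integrin chains went both ways. Itga4 was 8.04 and 8.26 against 6.54 and 6.69 (-1.53 ± 0.22, adjusted p = 0.00204), and Itgav 10.63 and 10.83 against 9.59 and 10.03 (-0.92 ± 0.21, adjusted p = 0.0248). The call of Itgav was lost without Th1 PBAB 1, Th1 PBAB 2 or Th17 PBAB 1 (0.0802 to 0.169) and with the mean of its probe sets (0.0516). Itgb7, the partner of the α4 chain in gut homing, was higher (0.80 ± 0.21, adjusted p = 0.0455), and lost its call with any 1 of the 4 arrays left out (0.121 to 0.221), with the 4 arrays alone (0.0509) and after a new quantile normalization (0.0549). Over the 20 tested members of this list 3 were higher and 2 lower; 1, 2, 2 and 2 were higher and 1, 1, 1 and 2 lower with 1 array left out.

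Among 11 tested inhibitory receptors 3 were lower and 2 higher in Th17, and 7 were lower with the block. Btla was 11.38 and 11.12 in Th1 and 9.42 and 9.60 in Th17 (-1.74 ± 0.24, 3.33-fold lower, adjusted p = 0.00163), and Cd96 8.97 and 9.39 against 6.54 and 7.07 (-2.38 ± 0.38, adjusted p = 0.00415). Vsir, which encodes VISTA, was higher, at 9.13 and 9.13 against 9.97 and 10.35 (1.03 ± 0.19, adjusted p = 0.00996), but not without Th1 PBAB 1, Th1 PBAB 2 or Th17 PBAB 2 (0.0616 to 0.0968). Lair1, a collagen receptor, was 4.39 and 4.52 against 5.48 and 5.5 (1.03 ± 0.24, adjusted p = 0.0308). It lost its call with any 1 of the 4 arrays left out (0.111 to 0.157) and with other rules for its probe sets (0.101 to 0.364). With 1 array left out 0, 0, 1 and 0 members of the list were higher, 2, 3, 2 and 2 lower, and after a new quantile normalization 5 were lower.

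Of 11 tested costimulatory genes 3 were lower and 1 higher. Beside Cd70, Cd80 was 7.03 and 6.51 against 4.80 and 5.40 (-1.67 ± 0.32, adjusted p = 0.01) and Cd40lg, which T cells use to activate B cells, 6.13 and 6.25 against 5.39 and 5.30 (-0.84 ± 0.18, adjusted p = 0.0206). Cd80 lost its call without Th1 PBAB 1 or Th17 PBAB 1 (0.0855 to 0.0906) and Cd40lg with any 1 of the 4 arrays left out (0.0803 to 0.134). The counts of lower members were then 1, 2, 1 and 2. Tnfrsf25, death receptor 3, was higher, at 9.06 and 8.79 against 10.43 and 10.46 (1.52 ± 0.25, 2.87-fold, adjusted p = 0.00456).

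**Figure D4:**
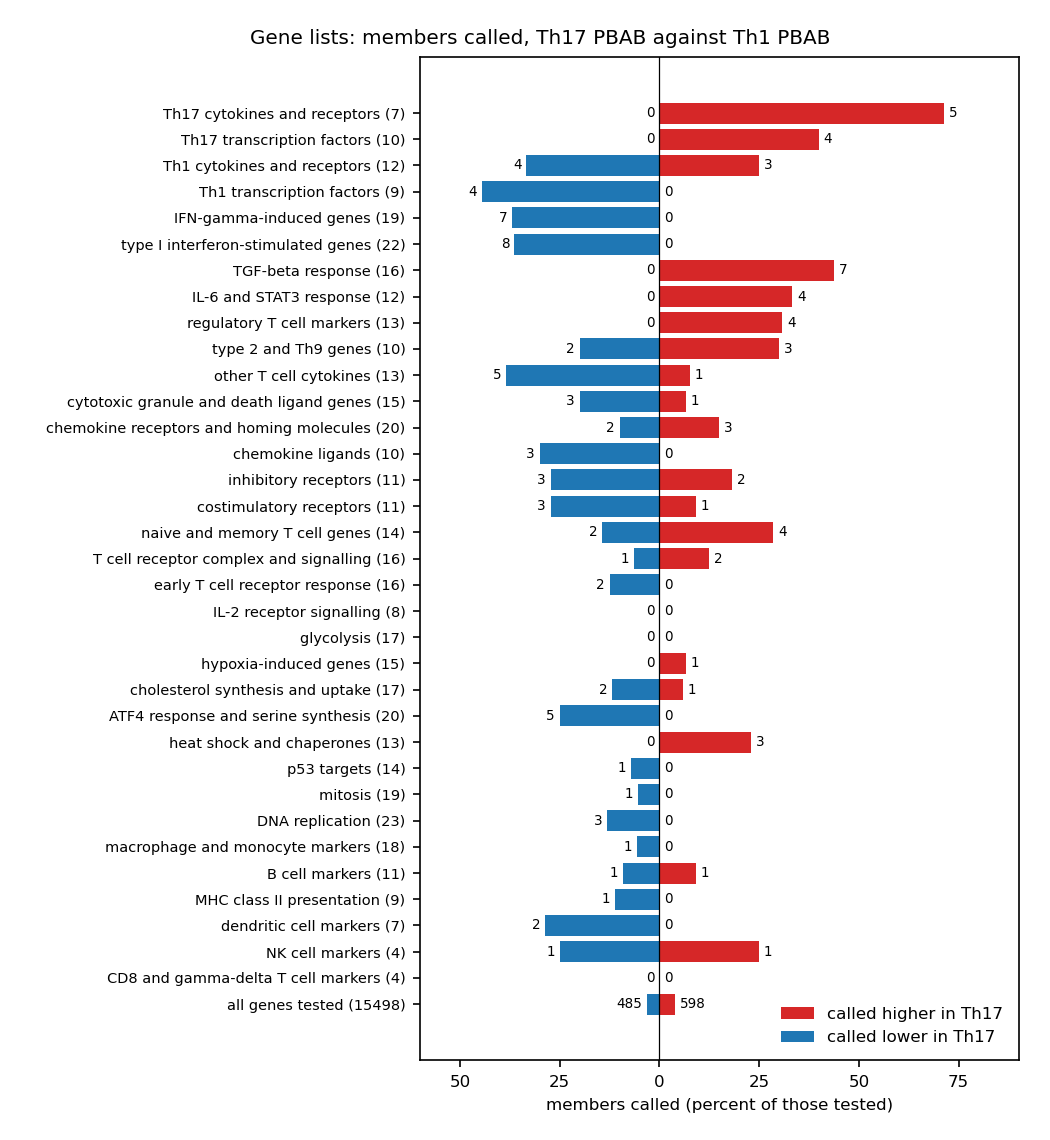
For each gene list (tested members in parentheses) the bars give the share of tested members called higher (red, right) or lower (blue, left) in Th17 PBAB than in Th1 PBAB, in percent, with the number at the end of each bar. The bottom bar gives all 15498 genes, 598 higher and 485 lower; the list of Th17 cytokines and receptors reaches farthest right with 5 of 7.

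Genes of naive and memory T cells showed 4 of 14 members higher and 2 lower. Foxo1, which keeps T cells quiescent, was 9.86 and 9.57 in Th1 and 10.93 and 10.66 in Th17 (1.08 ± 0.18, adjusted p = 0.00548), and Bach2, a repressor of effector genes, 9.89 and 9.70 against 11.53 and 11.02 (1.48 ± 0.29, adjusted p = 0.0130). Id3, an inhibitor of E proteins, was lower, at 9.18 and 9.62 against 7.11 and 7.65 (-2.02 ± 0.36, 4.06-fold lower, adjusted p = 0.00781). Foxo1 (0.0520 to 0.0563) and Id3 (0.0681 to 0.0701) lost theirs without Th1 PBAB 2 or Th17 PBAB 1, and Bach2 without Th1 PBAB 1, Th1 PBAB 2 or Th17 PBAB 1 (0.0602 to 0.105) and with the mean of its probe sets (0.0908). With 1 array left out 2, 1, 1 and 3 members were higher and 1, 0, 0 and 2 lower.

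Of 16 tested genes of the T cell receptor complex and its proximal signalling, 2 were higher, 1 was lower and 13 were not called. Cd2, an adhesion receptor, was 11.82 and 11.82 against 12.60 and 12.79 (0.87 ± 0.17, adjusted p = 0.0103), Cd6 10.17 and 9.64 against 10.91 and 10.61 (0.85 ± 0.22, adjusted p = 0.0439), and Cd247, the ζ chain, 10.51 and 10.10 against 9.46 and 9.24 (-0.95 ± 0.23, adjusted p = 0.0357). Each was lost in part of the fits with 1 array left out: Cd2 without Th1 PBAB 1, Th1 PBAB 2 or Th17 PBAB 2 (0.0644 to 0.0933), Cd6 without Th1 PBAB 2, Th17 PBAB 1 or Th17 PBAB 2 (0.101 to 0.313), and Cd247 with any 1 of the 4 left out (0.0565 to 0.214). Centring the arrays ended the calls of Cd6 and Cd247, the fits of the 4 or the 6 PBAB arrays that of Cd6, and the mean of all probe sets that of Cd247 (0.0548 to 0.0778 for Cd6 and 0.0574 to 0.0822 for Cd247). Cd3g, another chain, was not called (-0.56 ± 0.17, adjusted p = 0.0793; with the block 0.0261).

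Early genes of receptor stimulation had 2 of 16 members lower and 0 higher whichever array was left out. Nr4a3, a nuclear receptor that stimulation induces, was 10.66 and 10.78 in Th1 and 9.22 and 9.47 in Th17 (-1.38 ± 0.19, 2.6-fold lower, adjusted p = 0.00167; 0.101 with the mean of its probe sets). Nfatc1, the calcium-regulated factor, was 9.77 and 9.76 against 8.40 and 8.61 (-1.26 ± 0.18, adjusted p = 0.00242). Among 8 tested genes of IL-2 receptor signalling 0 were called by limma, and 3 were higher with the block: Il2rb (1.39 ± 0.47, adjusted p = 0.117; with the block 0.000171; 0.0491 with the 4 arrays alone), Stat5b (0.61 ± 0.21, adjusted p = 0.126; with the block 0.0114; 0.0183 with the mean of all probe sets) and Socs2 (0.92 ± 0.40, adjusted p = 0.237; with the block 0.0361).

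Metabolic lists gave few calls. Of the 17 tested glycolysis genes 0 were called by limma, although 16 of 17 differences were positive (median 0.21), and 1 was called with the block. Of 15 hypoxia-induced genes 1 was higher, P4ha1, a prolyl hydroxylase of collagen, at 9.83 and 9.67 against 10.71 and 10.79 (1.00 ± 0.23, adjusted p = 0.0294). With any 1 of the 4 arrays left out P4ha1 was not called (0.0990 to 0.177). In this list 14 of 15 differences were positive (median 0.66), and 4 were called with the block, 5 with the 4 arrays fitted alone and 6 with the 6 PBAB arrays alone. Of 17 genes of cholesterol synthesis Sc5d was higher (1.12 ± 0.16, adjusted p = 0.00229) and Idi1 (-0.91 ± 0.15, adjusted p = 0.0055) and Hmgcs1 (-0.97 ± 0.21, adjusted p = 0.0218) were lower; Idi1 lost its call without Th1 PBAB 1 (0.0530) and Hmgcs1 without Th1 PBAB 1, Th1 PBAB 2 or Th17 PBAB 1 (0.0989 to 0.155).

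Of 20 tested genes of the ATF4 response, which restores amino acid supply, 5 were lower and 0 higher (median -0.45). Cth, which makes cysteine, was 10.69 and 10.38 in Th1 and 7.70 and 8.37 in Th17 (-2.51 ± 0.53, 5.68-fold lower, adjusted p = 0.0180), and Mthfd2, a mitochondrial folate enzyme, 11.58 and 11.35 against 10.56 and 10.27 (-1.05 ± 0.21, adjusted p = 0.0149). Psph, the last enzyme of serine synthesis, differed by -0.80 ± 0.15 (adjusted p = 0.00966) and the stress factor Nupr1 by -1.52 ± 0.38 (adjusted p = 0.0375). Only 0, 0, 1 and 0 members of the list were called with 1 array left out, and adjusted p then ranged from 0.0502 to 0.187 over the calls of these 4 genes that were lost; Mthfd2 was kept without Th17 PBAB 1. Of 13 heat shock genes 3 were higher and 0 lower: Hspa1b, at 9.17 and 8.83 against 10.68 and 10.06 (1.37 ± 0.27, adjusted p = 0.0124), Hspa1a, at 6.84 and 6.62 against 8.63 and 7.83 (1.5 ± 0.35, adjusted p = 0.0284), and Hspa4l (0.88 ± 0.22, adjusted p = 0.0393). With 1 array left out 1, 0, 0 and 3 members of the list were called. Without Th17 PBAB 2 these were Hspa1a, Hspa1b and a member other than Hspa4l. Adjusted p was 0.0969 to 0.191 where the calls of the 3 named genes were lost, and Hspa1a was not called with the 6 PBAB arrays alone (0.0696). Hspa1a and Hspa1b are near-identical copies, and which of them a probe set reads is uncertain.

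Perp, a membrane protein and p53 target, was 10.33 and 10.41 in Th1 and 7.04 and 7.22 in Th17 (-3.24 ± 0.16, 9.47-fold lower, adjusted p = 2.56e-06). It was the 1 member of 14 tested p53 targets called; with the block 3 were lower and 1 higher.

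Cell cycle genes moved with 1 array. All 19 tested mitosis genes had a negative difference (median -0.81), and 1, Cenpe, a kinetochore motor, was called, at 8.44 and 8.64 against 8.02 and 7.12 (-0.97 ± 0.25, adjusted p = 0.0462). Its call was also lost with the mean of its probe sets, with centred arrays and with the 4 or the 6 PBAB arrays alone (0.0516 to 0.103). The mean level of the list was 9.52 and 9.40 in the Th1 arrays, 9.14 in Th17 PBAB 1 and 8.24 in Th17 PBAB 2, so the second Th17 array stood below the first by more than the first stood below Th1. Without Th17 PBAB 1, 14 of the 19 were lower, and without Th1 PBAB 1, Th1 PBAB 2 or Th17 PBAB 2, 0 were; the block gave 12. Cdk1, the kinase that starts mitosis, was 9.88 and 9.90 against 9.39 and 8.61 (-0.89 ± 0.25, adjusted p = 0.0619; with the block 0.0238, after a new quantile normalization 0.0476 and without Th17 PBAB 1 0.0205). The list of DNA replication, with mean levels of 8.88 and 8.63 in Th1 and 8.63 and 8.09 in Th17, had 3 of 23 members lower (6 with the block; 0, 0, 3 and 0 with 1 array left out). Its lead member was Tk1, thymidine kinase, at 8.48 and 7.91 against 7.22 and 5.81 (-1.68 ± 0.38, adjusted p = 0.0270), called without Th17 PBAB 1 and not without the others (0.0565 to 0.171) or with the 4 or the 6 PBAB arrays alone (0.0574 to 0.0650).

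A sorted CD4+ culture could hold other cells, whose markers differed by list. Of 18 macrophage and monocyte genes, 6 and 11 were above 5.07 in the Th1 arrays and 6 and 10 in the Th17 arrays, with a mean level over the list of 4.99 and 5.37 against 4.91 and 5.14. Cd68 was the 1 member called, at 8.53 and 8.91 against 6.96 and 7.31 (-1.59 ± 0.39, adjusted p = 0.0358; not called with any 1 of the 4 arrays left out, 0.0969 to 0.214). Adgre1, which defines tissue macrophages, lay at 4.41 and 4.95 against 4.47 and 4.87. The 11 B cell markers had a mean of 4.89 and 5.01 against 4.93 and 4.93, with 1 called in each direction, and 4 CD8 and γδ T cell markers a mean of 5.56 and 6.0 against 5.42 and 6.30, with 0 called. Of 7 dendritic cell markers 2 were lower: Zbtb46, at 5.87 and 5.70 against 5.12 and 5.09 (-0.68, adjusted p = 0.0394), and Batf3, at 11.07 and 10.56 against 9.19 and 9.44 (-1.5, adjusted p = 0.0473). Both calls were lost with any 1 of the 4 arrays left out (0.10 to 0.234), that of Zbtb46 with the 4 or the 6 PBAB arrays alone (0.0589 to 0.0751), and that of Batf3 with no filter and with centred arrays (0.0508 to 0.0618). Other probe sets of Zbtb46 differed by -2.03, -0.53 and -0.03. The mean of the dendritic cell list was 5.82 and 5.84 against 5.50 and 5.51, and that of the 4 NK cell markers 6.11 and 6.78 against 5.50 and 6.11. The 9 genes of MHC class II presentation had a mean of 6.68 and 6.77 against 6.38 and 6.37, with 7 and 8 of them above 5.07 in the Th1 arrays and 8 and 7 in the Th17 arrays. H2-Eb1 was the 1 member called, at 6.88 and 7.07 against 6.06 and 5.89 (-1.0, adjusted p = 0.00502), a call lost without Th1 PBAB 2 or Th17 PBAB 2 (0.0511 to 0.0523); with the block 1 member was higher and 2 lower. Cd8a differed more between replicates than between cultures, at 5.20 and 6.45 against 4.64 and 6.52. Cd74, the invariant chain of MHC class II, was 8.55 and 7.33 against 6.81 and 6.22 (adjusted p = 0.117; with the block 0.000929 and after a new quantile normalization 0.0494). The part of such cells in the results above was not tested.

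The Th9 cultures, under the same plate-bound antibodies, received 10 ng/ml IL-4 and 1 ng/ml TGF-β, against 3 ng/ml TGF-β in Th17. They received no IL-6, IL-1α, IL-12 or neutralising antibodies. The cocktails thus differ in several parts, whose effects cannot be told apart. Against Th9, 408 genes were higher in Th17 (2.63%) and 579 lower (3.74%), and between Th9 and Th1 194 were higher (1.25%) and 140 lower (0.903%) in Th9. These comparisons share arrays with each other and with Th17 against Th1, so their values are set side by side. Il17a measured 5.41 and 5.64 in Th9 (Th9 minus Th1 -0.05 ± 0.30, adjusted p = 0.985), and Lbp (5.19 and 5.71), Aqp3 (7.37 and 6.47) and Il21 (6.89 and 6.05) were not called between Th9 and Th1 either (adjusted p = 0.981, 0.885 and 0.889). Maf, by contrast, was 10.67 and 10.58 in Th9 (Th9 minus Th1 4.58 ± 0.27, adjusted p = 1.40e-05, and Th17 minus Th9 1.16 ± 0.27, adjusted p = 0.0282), and Ahr 10.34 and 9.38 (3.18 ± 0.40, adjusted p = 0.00201, and 1.33 ± 0.40, adjusted p = 0.0813, with the block 0.00079). Il10 was 7.42 and 8.02 in Th9, above Th1 (2.77 ± 0.61, adjusted p = 0.0469) and not called apart from Th17 (1.04 ± 0.61, adjusted p = 0.464).

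Among the genes lower in Th17, Ifng lay between the others in Th9, at 7.65 and 8.41 (Th9 minus Th1 -5.05 ± 0.48, adjusted p = 0.000369, and Th17 minus Th9 -4.31 ± 0.48, adjusted p = 0.000554). Gzmb and Nkg7 were not called between Th9 and Th1 (adjusted p = 0.85 and 0.867), with Gzmb at 12.95 and 13.47 and Nkg7 at 11.36 and 11.80 in Th9, and both were lower in Th17 than in Th9 (-5.80 ± 0.81 and -5.33 ± 0.66, adjusted p = 0.00211 and 0.00105). Cd70 and Ms4a4b were low in Th9 too, at 5.54 and 4.95 and at 4.42 and 5.54, and were not called between Th17 and Th9 (adjusted p = 0.589 and 0.960). Gata3, at 11.44 and 10.99 in Th9, was highest there, lower in Th1 (Th9 minus Th1 3.48 ± 0.40, adjusted p = 0.00135) and lowest in Th17 (Th17 minus Th9 -5.78 ± 0.40, adjusted p = 4.63e-05).

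The same cocktails under presented antigen allowed the lineage difference to be compared between activations. Under HA 470 genes were higher in Th17 (3.03%) and 599 lower (3.87%). Of the 598 genes higher under PBAB, 154 were also called higher under HA (25.8% of the PBAB genes and 32.8% of the HA genes), and of the 485 lower 170 were also lower (35.1% and 28.4%). The 4 PBAB and the 4 HA arrays are separate samples. Same-numbered arrays nevertheless deviated together from their group means across activations (r across genes 0.508 for Th1 and 0.405 for Th17). The same fit gave the spread for both, so the shared calls are not independent evidence. The difference between the lineage differences, tested as an interaction, was called for 333 genes in the direction of a higher value under PBAB (2.15%) and for 214 in the other (1.38%), and 291 of the 1083 genes called under PBAB were among them. The interaction contains the PBAB difference by which the 1083 genes were called. This overlap is therefore raised by construction and is only a description. Without Th1 PBAB 1, Th1 PBAB 2, Th17 PBAB 1 and Th17 PBAB 2 in turn, the genes called in both activations numbered 101, 100, 104 and 99 higher and 90, 110, 98 and 109 lower, and 88, 95, 159 and 97 were called under PBAB and in the interaction. Without Th1 HA 1, Th1 HA 2, Th17 HA 1 and Th17 HA 2 the last number was 163, 178, 268 and 104, and 125, 108, 100 and 117 were higher and 134, 123, 120 and 119 lower in both. With the block 378 were higher and 333 lower in both, and 1035 were called under PBAB and in the interaction. With the block the HA counts were 1168 and 1205 and the interaction counts 1024 and 804. Without Th1 HA 1, Th1 HA 2, Th17 HA 1 and Th17 HA 2 in turn, 293, 255, 290 and 256 genes were higher under HA and 416, 440, 464 and 335 lower. The interaction counts were then 217, 247, 345 and 130 in the first direction and 102, 110, 201 and 79 in the other. Without Th1 PBAB 1, Th1 PBAB 2, Th17 PBAB 1 and Th17 PBAB 2 they were 147, 139, 193 and 136 in the first and 77, 75, 118 and 94 in the other. The lineage difference of Il17a under HA was 4.53 and the interaction was not called (adjusted p = 0.0572; with the block 0.0218). For Ahr it was 3.62, and the interaction was not called (adjusted p = 0.522; with the block 0.0488). Aqp3 (4.91), Gpr15 (4.12), Tbx21 (-5.00) and Ifitm3 (-3.68) had differences of the same sign under HA, with no interaction called (adjusted p = 0.426 to 0.733).

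**Figure D5:**
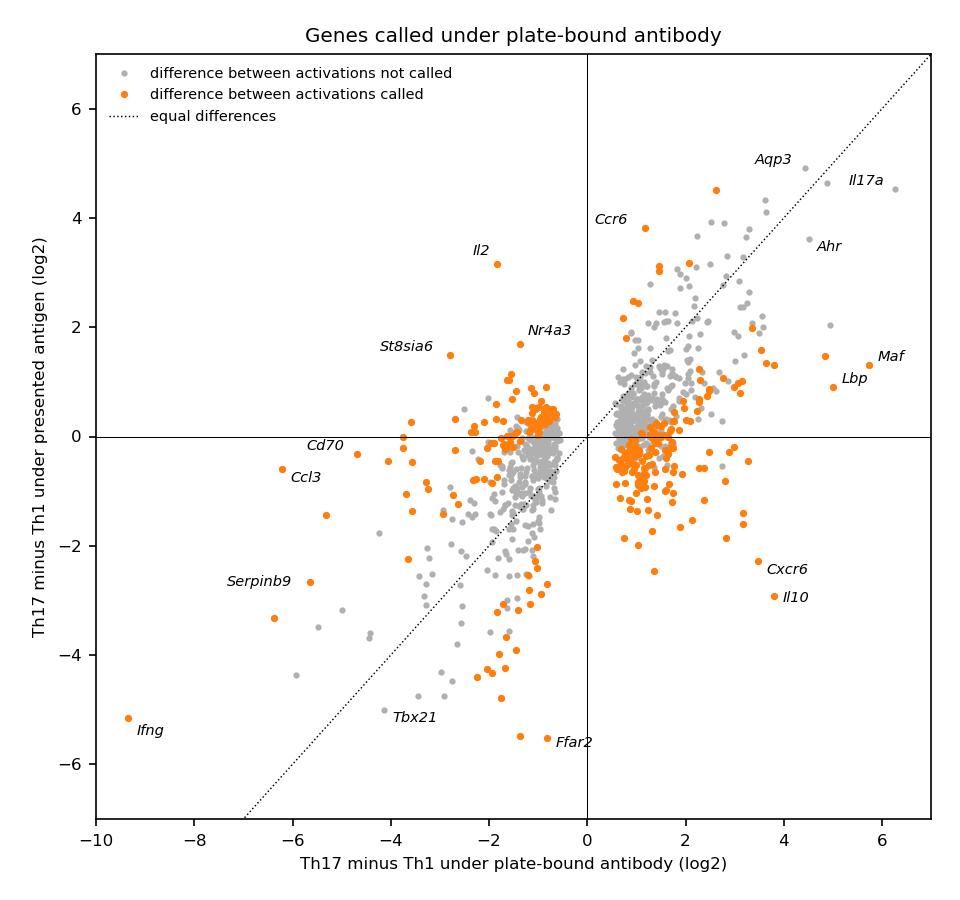
Each point is 1 of the 1083 genes called under plate-bound antibody, with its Th17 minus Th1 difference there on the x axis and under presented antigen on the y axis (log2). The 291 orange points are genes whose 2 differences were called apart; Maf and Lbp lie far right of the dotted line of equality, and Il10, Il2 and St8sia6 lie on opposite sides of 0 under the 2 activations.

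Other lead genes differed between activations. Maf was 9.51 and 9.03 in Th1 and 10.89 and 10.26 in Th17 under HA, so that the difference was 1.30 there against 5.74 under PBAB (interaction 4.43 ± 0.37, adjusted p = 0.000524). Lbp, lipopolysaccharide-binding protein, which went from 5.38 and 5.68 to 11.18 and 9.90 under PBAB (5.01 ± 0.37, adjusted p = 3.88e-05), was 5.74 and 5.40 against 6.58 and 6.35 under HA (interaction 4.11 ± 0.52, adjusted p = 0.00284). Ifng was lower in Th17 under both, with differences of -9.35 and -5.16 (interaction -4.20 ± 0.68, adjusted p = 0.00891), with Th17 HA levels of 7.30 and 8.02. Ccl3 differed by -0.60 under HA (interaction -5.62 ± 0.57, adjusted p = 0.00135) and Cd70 by -0.32 (-4.38 ± 0.33, adjusted p = 0.000314). Ccr6 showed the reverse pattern, with a larger increase under HA of 3.81 (interaction -2.64 ± 0.43, adjusted p = 0.00941).

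For 23 of the 598 genes called higher under PBAB the difference was called lower under HA, and for 6 of the 485 called lower the opposite held. Over all genes 3.87% were called lower and 3.03% higher under HA. Neither number exceeds that share, so the counts are not a result about reversing genes, and single genes are described. Il10 had the largest such reversal, with means of 4.95 in Th1 and 8.76 in Th17 under PBAB and levels of 11.63 and 10.21 in Th1 against 8.64 and 7.37 in Th17 under HA (HA difference -2.92, adjusted p = 0.0157; interaction 6.73 ± 0.86, adjusted p = 0.00297). Il2, lower in Th17 under PBAB, was 4.02 and 4.28 in Th1 and 7.0 and 7.61 in Th17 under HA (3.16, adjusted p = 6.36e-05; interaction -5.00 ± 0.39, adjusted p = 0.000314). St8sia6, a sialyltransferase, was 7.33 and 6.92 against 4.40 and 4.27 under PBAB and 4.86 and 5.12 against 6.48 and 6.49 under HA (interaction -4.28 ± 0.41, adjusted p = 0.00115). Without Th1 PBAB 1, Th1 PBAB 2, Th17 PBAB 1 and Th17 PBAB 2 in turn, the 23 became 9, 9, 13 and 7 and the 6 became 3, 3, 3 and 5. Without Th1 HA 1, Th1 HA 2, Th17 HA 1 and Th17 HA 2 they became 14, 13, 29 and 9, and 8, 4, 4 and 2. With the block they were 105 and 45. Il2 and Nr4a3 were among the genes lower under PBAB and higher under HA in each of these fits. The other 4 genes called lower under PBAB and higher under HA were Sox4, Tnfsf11, Nr4a3 and Pdgfa, of which Sox4 and Pdgfa are named because of these values. The HA call of Il10 was lost without Th1 HA 1 or Th17 HA 2 (adjusted p = 0.121 to 0.142) and that of St8sia6 without Th1 HA 1, Th17 HA 1 or Th17 HA 2 (0.0538 to 0.0751). That of Tnfsf11 was lost without Th1 PBAB 1, Th1 PBAB 2, Th1 HA 2, Th17 HA 1 or Th17 HA 2 (0.0572 to 0.284).

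The HA cultures held splenocytes, and markers of such cells differed with the cocktail there. Of 18 macrophage and monocyte markers 11 were higher in Th17 HA than in Th1 HA, with a median difference of 1.73. For 10 the interaction was called lower. The shares over all genes were 3.03% and 1.38%. Lyz2, lysozyme, was 6.63 and 5.70 in Th1 HA and 10.34 and 10.84 in Th17 HA, and in the PBAB arrays 4.46 and 5.43 against 5.04 and 5.73. The part of such RNA in the differences between activations was not tested.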

How the data were processed

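RNA was measured on 15 mouse expression arrays, and the labels do not say which wells the replicates came from. Per the submitters' processing notes the authors made the values with RMA, and the deposited log2 values (log base judged from their range) were used unchanged. The table held 45101 probe sets: 34958 carried 1 gene symbol, 932 several and 9211 none here. Only the first were used, 1 probe set per gene with the highest mean over 15 arrays. A group-means model was fitted to all 15 arrays with limma 3.58.1 in R 4.3.3 (6 residual and 4.38 prior degrees of freedom), and p-values were adjusted by Benjamini-Hochberg over 15498 genes. The number of arrays limits the precision, and the procedure was tested on simulated data.

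The interaction is the Th17 minus Th1 difference under PBAB minus that under HA. Alternatives were other filters, other rules for choosing probe sets, centring, a new quantile normalization, the 4 or the 6 PBAB arrays fitted alone, array weights and each replicate left out in turn. A further fit used the replicate number as a block over the 12 activated arrays. Same-numbered arrays deviated together (correlation of deviations 0.296 to 0.708 over 15 pairs of groups, 0.483 for the groups compared). In the block fit the numbers were therefore taken to pair the arrays, with the pairing resting on the data and the labels' numbers. The main fit ignored this pairing. Calls, standard errors and counts come from that unpaired fit unless the block is named.

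Genes were named by rule: the 10 largest called differences each way, 24 lineage genes where measured, in every list the 4 members of lowest p or fewer, and the 5 largest called interactions each way. Stat3, Irf4, Batf, Prf1, Ctla4, Il2ra, Il4, Il5, Il13, Adgre1, Cd4, Cd3e, Itgb7, Sox4 and Pdgfa are named outside it, after their values were seen. The comparison, its gene lists and its rules were chosen with earlier results of these data known. Promoters came from RefSeq (GRCm38.p6). Python 3.11.15 with pandas 2.3.3, numpy 2.4.6 and matplotlib 3.10.9 made the tables and figures.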

Additional observations from a re-analysis of the deposited data

Results flagged for a closer look

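These genes had a Th17 minus Th1 difference that was called apart between plate-bound antibody and presented antigen, by the limma interaction test adjusted over all 15498 genes. Values are the PBAB difference minus the HA difference (log2). In all, 46 named genes met this, and 30 of the 46 were called with each of the PBAB and HA arrays left out in turn. The 5 largest in each direction were named for their size, so those values are a description. Genes named for their PBAB difference were chosen by a part of the interaction, so their number here is a description too.

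Among cytokines and chemokines the interaction was 6.73 for Il10, -3.56 for Il3, -4.20 for Ifng, -5.00 for Il2, -2.64 for Ccl4 and -5.62 for Ccl3. Among TNF family ligands it was -2.38 for Tnfsf8, -2.70 for Tnfsf11 and -4.38 for Cd70. Cxcr6 had 5.76: it was 11.50 and 12.39 in Th1 HA and 10.0 and 9.32 in Th17 HA, above both PBAB cultures. Among other receptors it was 3.73 for Ltb4r1, 4.70 for Ffar2, 3.01 for Lair1, 2.10 for Ifngr1, 1.97 for Il4ra, 1.73 for Vsir, -1.41 for Il18r1, -1.43 for Il1r1, -2.45 for Cd96 and -2.64 for Ccr6, and for the integrin chain Itga4 -2.22.

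Ffar2, a receptor for short-chain fatty acids, was 11.42 and 11.45 in Th1 HA and 5.77 and 6.06 in Th17 HA, against 6.15 and 6.35 and 5.48 and 5.38 under PBAB. Esm1 (5.24) was 9.11 and 8.59 in Th1 HA and 3.85 and 3.64 in Th17 HA, and under PBAB 3.90 and 3.89 against 3.87 and 4.19. The interaction was 4.78 for 2610528A11Rik, whose Th1 HA replicates were 6.29 and 4.01. Among transcription factors and signalling genes it was 4.43 for Maf, 1.80 for Smad3 and -3.08 for Nr4a3. It was 4.11 for Lbp, 3.37 for Serpinb1a, -2.97 for Serpinb9, -3.05 for Serpinb6b, 2.49 for Adam19, -3.88 for Crabp2, -4.28 for St8sia6, -2.27 for Perp, 2.21 for Usp18, 1.65 for Hspa1b, 1.56 for Sc5d, 1.52 for P4ha1 and -1.31 for Prim1.

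Markers of macrophages, B cells and antigen presentation made up the rest, with -3.98 for Lyz2, -4.18 for Lyz1, -2.77 for Tyrobp, -2.61 for Cd68, -1.30 for Ms4a1, -1.92 for H2-Ob and -1.02 for H2-Eb1. The HA cultures held added splenocytes and the PBAB cultures did not.

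The calls lost with at least 1 array left out were those of Serpinb1a, Il1r1, Il18r1, Usp18, Smad3, Il4ra, Ccl4, Cd96, P4ha1, Hspa1b, Prim1, Cd68, Lyz1, Tyrobp, Ms4a1 and H2-Eb1. That of Lyz1 was lost without Th17 HA 2 (adjusted p = 0.0534), and that of Il1r1 without each of the 8 arrays (0.0527 to 0.161).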

How the results depend on the processing

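No named gene changed direction between the main fit and an alternative where it was called in at least 1 of them. The direction of genes called in neither can turn on 1 array. Cxcr3 measured 6.84 and 6.76 in Th1 against 7.29 and 6.77 in Th17. Of 113 called genes among the 155 named, 58 were called under each of 15 alternatives and 54 lost the call with at least 1 array left out. With the replicate block, which pairs the same-numbered arrays, 1442 genes were higher and 1200 lower in Th17 under PBAB, 1168 and 1205 under HA, and 1024 and 804 in the interaction; the block ended no call among the named genes and added 17. With 1 array left out the counts were 246 to 318 higher and 196 to 290 lower under PBAB, 255 to 293 and 335 to 464 under HA, and 130 to 345 and 75 to 201 in the interaction. An adjusted p under 0.01 left 249 higher and 220 lower genes, and a difference of at least 1 left 375 and 308. The other settings kept the PBAB counts within 1.5 times (575 to 687 higher, 425 to 640 lower). Replicates of 2 give few degrees of freedom, and signals below 5.07 cannot be told from background in size.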

Other observations

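The genes next in size after the 10 largest in each direction were looked at after their values were seen. Among those higher in Th17, Cysltr1, a receptor for cysteinyl leukotrienes, was 6.29 and 5.96 in Th1 and 9.54 and 9.99 in Th17 (3.64 ± 0.24, 12.4-fold), beside the leukotriene B4 receptor Ltb4r1. Pdpn, podoplanin, a membrane glycoprotein, was 6.53 and 6.36 against 10.0 and 10.12 (3.62 ± 0.28), and its difference under HA was 4.33. Gatm, an enzyme of creatine synthesis, was 8.04 and 7.51 against 11.51 and 11.14 (3.55 ± 0.26), and Ctsf, a lysosomal cathepsin, 5.25 and 5.09 against 8.53 and 8.53 (3.36 ± 0.15). In all of them the arrays of the cultures were apart, as in every called gene.

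Among those lower in Th17, Penk, which encodes the opioid peptide precursor proenkephalin, was 9.98 and 9.19 in Th1 and 5.5 and 6.17 in Th17 (-3.75 ± 0.39), and its difference under HA was -0.01 (interaction -3.74, adjusted p = 0.00588). Dapl1 was 10.31 and 9.88 against 6.04 and 6.05 (-4.05 ± 0.21), and -0.44 under HA (interaction -3.61, adjusted p = 0.000512). Acsl6, a fatty acid-activating enzyme, was 8.14 and 6.91 against 3.87 and 4.01 (-3.59 ± 0.45), and Plxnc1, a semaphorin receptor, 8.64 and 8.26 against 5.03 and 4.75 (-3.56 ± 0.27). The guanylate-binding protein Gbp8 was 7.36 and 7.45 against 2.51 and 3.45 (-4.42 ± 0.36).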
